A study of Homo sapiens and Mus musculus with 12 samples.

Results

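WNT ligands, the frizzled receptors that bind them and the secreted proteins that modulate them were followed in cortical organoids, aggregates of embryonic stem cells that differentiate toward forebrain tissue. In human, 42 of 60675 gene identifiers were chosen by symbol: 19 WNT ligands, 10 frizzled receptors (FZD), 5 secreted frizzled-related proteins (SFRP, with FRZB), 4 dickkopf proteins (DKK) and 4 R-spondins (RSPO). In mouse, 41 of 47729 identifiers were their orthologs by gene description, and DKK4 had no match. The human groups were KO, H9 embryonic stem cells with a NOTCH2NL knockout (line code H9_KO_E5del42), and WT, the H9 control (H9_WT_E2del19), with CRISPR/Cas9 used in making both lines. H9 is an established human line, and NOTCH2NL is a group of partial NOTCH2 copies found in human, NOTCH2 being a Notch receptor gene. Both groups were harvested at week 4, on day 28, as pools of 5 to 10 organoids. All human organoids received SB431542 (dose not given in the labels), 1 µM dorsomorphin, 3 µM IWR-1-Endo and 1 µM cyclopamine, the last until day 24. Neurobasal medium was used from day 18 in both groups. IWR-1-Endo blocks tankyrase and so stabilises axin, which means that KO and WT were both exposed to an inhibitor of WNT/beta-catenin signalling. An end day was recorded here for cyclopamine only, so whether IWR-1-Endo was present up to harvest is not known. The mouse groups were N2NL, 46C mouse embryonic stem cells stably overexpressing NOTCH2NL-Sh_T197I cDNA, and EV, the stable control line, whose abbreviation the labels do not spell out, each harvested after 6 days as pools of 16 organoids. The human contrast was made to ask how loss of NOTCH2NL affects cortical neurogenesis. Each of the 4 groups had 3 RNA-seq libraries and 1 line code, so genotype or vector and the line carrying it cannot be told apart. What the human line codes stand for was not given in the sources used here. Labels do not say that pools came from separate cultures, so p-values reflect only how pools vary, part of which may be technical.

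WNT proteins are lipid-modified ligands that bind frizzled receptors together with LRP5 or LRP6, which stabilises beta-catenin and lets it act with TCF/LEF factors on target genes, while other receptor complexes steer planar polarity. SFRP and FRZB proteins carry a frizzled-like domain and bind ligands outside the cell, DKK1 and its relatives bind LRP5 and LRP6, and R-spondins protect frizzled receptors from removal by ZNRF3 and RNF43. In the forebrain the cortical hem, the medial edge of the cortex beside the choroid plexus, is known as a WNT source, and the antihem at the opposite edge as a source of WNT inhibitors, both largely from work in mouse.

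Library totals ran from 15381409 to 16382938 counts in human and from 16781742 to 20960391 in mouse. NOTCH2NL itself had 0 counts in all 3 KO libraries, against 4, 5 and 3 counts in WT 1 to 3. Counts this low are a weak measure of NOTCH2NL in either group, and how reads shared between its copies were counted is not stated. The authors' deposited table lists normalized values of 801, 709 and 740 for NOTCH2NL in N2NL 1 to 3, against 0 in all 3 EV libraries. WT 1 stood apart from the other WT libraries on the second principal component of log2 CPM (35.0, against -28.0 and -11.2), and the counts of members and pathway genes called are therefore given with and without it. Library numbers follow the raw count columns: in the authors' deposited human table the normalized columns numbered 1 and 3 match raw columns 3 and 1 within each group, so which of these numbers is right cannot be told apart. Of the 9 dorsal telencephalon markers listed, all were detected in every library of both species. The mouse libraries at day 6 also held stem cell transcripts, among them Pou5f1 at 117 to 145 CPM in N2NL, against 110 to 132 CPM in EV.

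Promoter sequences are shown for 3 members whose KO and WT libraries did not overlap (FZD1, FZD8 and SFRP2) and for DKK1, a WNT target gene in its own right, whose window holds a TCF/LEF match. They come from RefSeq, build GRCh38.p14, from 250 bases before to 50 after the gene start, and 29 of the 42 human members matched the table. The 13 without an entry were WNT7B, WNT10B, WNT11, FZD2, FZD3, FZD6, FZD7, FZD10, SFRP1, DKK2, DKK3, DKK4 and RSPO2. Searched on both strands, CTTTGAA and CTTTGAT (TCF/LEF) and GTGGGAA (RBPJ, the Notch effector) never overlapped one another in the windows of members, and capitals mark matches.
FZD1 (chr7:91264183-91264482, plus strand): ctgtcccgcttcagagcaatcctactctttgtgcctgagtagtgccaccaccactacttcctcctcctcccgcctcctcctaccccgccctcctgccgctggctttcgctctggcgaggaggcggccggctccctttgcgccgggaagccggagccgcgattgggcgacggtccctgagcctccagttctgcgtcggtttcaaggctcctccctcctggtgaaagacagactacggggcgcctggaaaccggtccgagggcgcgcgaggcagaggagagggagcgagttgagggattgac
FZD8 (chr10:35642247-35642546, minus strand): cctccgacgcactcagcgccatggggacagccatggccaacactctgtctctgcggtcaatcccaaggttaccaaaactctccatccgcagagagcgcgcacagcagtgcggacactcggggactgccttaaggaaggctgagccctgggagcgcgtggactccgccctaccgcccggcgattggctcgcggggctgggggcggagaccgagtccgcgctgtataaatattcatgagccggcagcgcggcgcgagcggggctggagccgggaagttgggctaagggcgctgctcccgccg
SFRP2 (chr4:153789034-153789333, minus strand): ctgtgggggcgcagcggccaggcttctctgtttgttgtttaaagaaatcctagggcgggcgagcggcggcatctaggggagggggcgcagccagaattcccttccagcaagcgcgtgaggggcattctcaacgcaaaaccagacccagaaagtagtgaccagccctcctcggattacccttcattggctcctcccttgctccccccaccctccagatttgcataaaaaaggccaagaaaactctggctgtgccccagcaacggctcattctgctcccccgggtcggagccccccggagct
DKK1 (chr10:52314031-52314330, plus strand): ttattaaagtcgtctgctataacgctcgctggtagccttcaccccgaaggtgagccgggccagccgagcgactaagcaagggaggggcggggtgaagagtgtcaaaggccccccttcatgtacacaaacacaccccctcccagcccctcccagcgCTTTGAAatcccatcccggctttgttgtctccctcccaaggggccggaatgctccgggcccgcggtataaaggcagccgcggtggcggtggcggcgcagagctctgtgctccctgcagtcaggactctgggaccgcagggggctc
DKK1 held CTTTGAA on its plus strand at bases 156 to 162 of the window, and the windows of FZD1, FZD8 and SFRP2 held none of these letters. Of the 32 windows of members, 1 (3.12%) held CTTTGAA or CTTTGAT, against 6.86% of 35116 windows of all genes. GTGGGAA was in 1 window of a member, that of WNT9A on the minus strand, against 6.25% of all windows. A match is a description of letters and not of a binding site.

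In human, 32 of the 42 members had enough counts to be tested. Of these, 2 rose and 2 fell in KO at an edgeR adjusted p under 0.05 (12.5%), against 5.5% of all 16956 genes tested, of which 2.31% rose and 3.19% fell. DKK2 and FZD1 were higher and WNT7B and DKK3 lower. The median log2 fold change over the tested members was -0.0003, beside -0.005 over all genes tested, with 16 members above and 16 below 0. KO and WT libraries did not overlap for 7 of the 32 (21.9%), against 28.8% of all genes, with 4 higher and 3 lower in KO, so groups apart were not more frequent among the members than in the whole table. DESeq2 called 6, adding FZD8 and SFRP2, against 7.13% of all genes. Without WT 1, 6 members were called, with FZD8 and WNT1 added and none of the 4 lost, against 8.27% of all genes. Without WT 3, WNT7B alone was called, against 1.29% of all genes. Without KO 1, WNT7B and DKK3 were called, against 1.44% of all genes. In these bulk libraries, fewer cells of a type and less RNA per cell cannot be told apart.

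**Figure D1:**
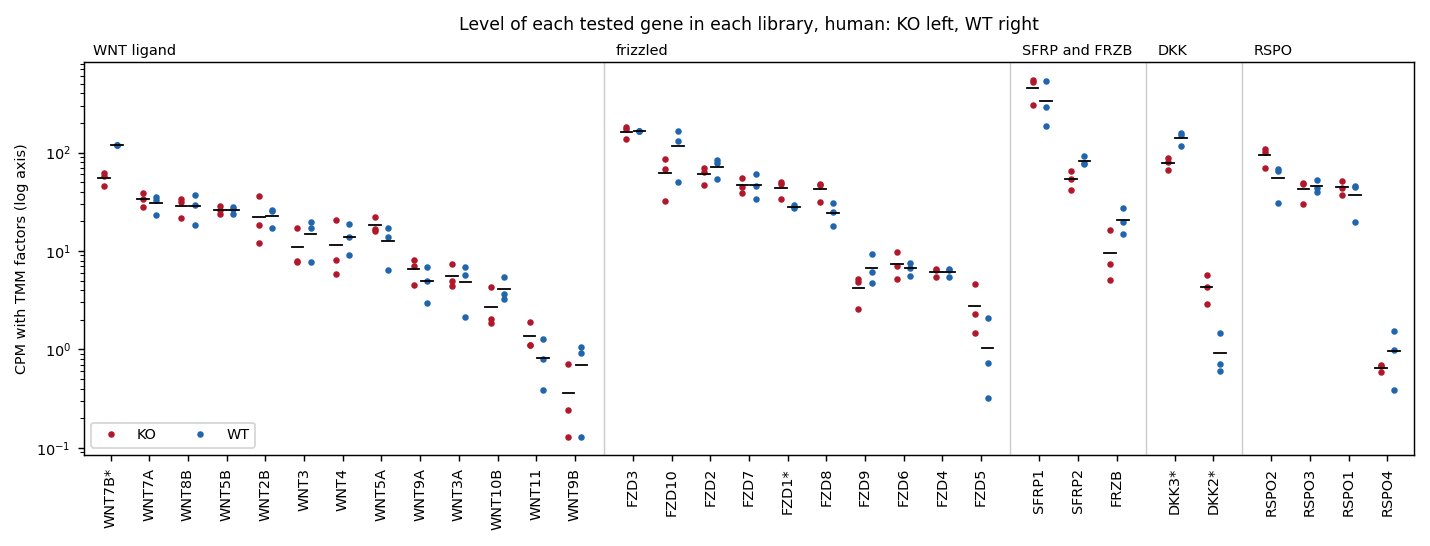
Level in CPM (counts scaled to library size with TMM factors, log axis) of each human member tested, in each library, with KO in red at the left and WT in blue at the right of each gene; bars are group means and an asterisk marks an edgeR adjusted p under 0.05. The KO points of WNT7B (45.9 to 62.1 CPM) lie below the WT points (120.4 to 121 CPM), and those of DKK2 (2.88 to 5.66 CPM) above the WT points (0.597 to 1.46 CPM).

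Among the ligands, WNT7B fell and no other was called. WNT7B is a ligand of developing cortex that also drives the growth of vessels into the brain (ENSG00000188064, GRCh38 chromosome 22, 45920362 to 45977129, minus strand). It had 62.1, 45.9 and 58.1 CPM in KO 1 to 3, against 121, 121 and 120.4 CPM in WT 1 to 3. All KO libraries lay below all WT libraries, and the WT libraries were almost equal. The log2 fold change was -1.12 ± 0.11 (SE; edgeR adjusted p = 0.000417), and it stayed called whichever of the 6 libraries was left out, at -1.20 to -1.001. Its close paralog WNT7A, also a cortical ligand, was not called (0.14 ± 0.18, adjusted p = 0.684).

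WNT8B, a ligand of the hem and the hippocampal primordium in mouse, was the second ligand by level per length in WT. It had 33.5, 31.6 and 21.7 CPM in KO 1 to 3, against 18.3, 29.7 and 37.5 CPM in WT 1 to 3. The groups overlapped fully, with WT 1 lowest and WT 3 highest of all 6 libraries, and the log2 fold change was 0.02 ± 0.28 (edgeR adjusted p = 0.975). The other hem-associated ligands were not called either: WNT3A differed by 0.20 ± 0.40, WNT2B by -0.03 ± 0.43 and WNT5A, which signals mainly outside the beta-catenin branch, by 0.54 ± 0.34 on the log2 scale. WNT2B shares 2661 exonic bases with ST7L on the opposite strand, and since no source used here says whether counting used strand, its level is uncertain. WNT5B, a further ligand of the branch outside beta-catenin, averaged 26.3 ± 2.62 CPM in KO and 26.2 ± 2.32 CPM in WT (SD, n = 3 each), a difference of 0.00 ± 0.12.

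Over the 13 ligands tested, log2 fold changes ran from -1.12 (WNT7B) to 0.72 (WNT11), and apart from WNT7B the lowest adjusted p was 0.356. The 6 ligands not tested were WNT1, WNT2, WNT6, WNT8A, WNT10A and WNT16. WNT1, a midbrain and midbrain-hindbrain boundary ligand named here after its values were seen, had 3, 4 and 7 counts in KO 1 to 3, against 3, 29 and 24 counts in WT 1 to 3. WT 2 and WT 3 were high and WT 1 was as low as KO. It missed the filter on low counts in the full set, and among the alternatives edgeR called it lower in KO without WT 1 (-2.48 ± 0.50, adjusted p = 0.0126) and with no filter (-1.98 ± 0.57, adjusted p = 0.0121), with adjusted p-values of 0.0121 to 0.354 over the alternatives that gave one. The remaining 5 had at most 13 counts in any library, and WNT6 had 0 counts in all 6.

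Among the receptors, FZD1 rose and the other 9 were not called. FZD1 is a receptor that can signal through beta-catenin (ENSG00000157240, GRCh38 chromosome 7, 91264364 to 91271326, plus strand). It had 48.1, 49.9 and 33.5 CPM in KO 1 to 3, against 29.03, 27.9 and 27.5 CPM in WT 1 to 3. All KO libraries lay above all WT libraries, KO 3 by the least, and the WT libraries were close to one another. The log2 fold change was 0.64 ± 0.15 (edgeR adjusted p = 0.0338), and the call held without KO 3 or WT 1 and was lost without KO 1, KO 2, WT 2 or WT 3 (0.54 to 0.80 over the 6 fits).

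FZD8, a receptor of the anterior neural plate in mouse that is given in full after its values were seen, had 48.2, 47.3 and 31.7 CPM in KO 1 to 3, against 30.5, 18.0 and 25.1 CPM in WT 1 to 3. KO was higher in every library, but KO 3 and WT 1 lay close together, and the difference was not called (0.79 ± 0.22, edgeR adjusted p = 0.0886). It was called by DESeq2 (0.79 ± 0.21, adjusted p = 0.00467), without WT 1 and without KO 3, with adjusted p-values of 1.38e-07 to 0.234 over the alternatives. The 2 receptors of highest level per length in WT were FZD10 and FZD2, and neither was called. FZD10, a receptor of the dorsal neural tube, had 68.2, 32.4 and 86.8 CPM in KO 1 to 3, against 49.8, 166 and 132 CPM in WT 1 to 3. WT 1 lay among the KO libraries and WT 2 and WT 3 above them, and the SE was large (-0.89 ± 0.58, adjusted p = 0.433). FZD2, a receptor often linked to WNT5A, had 63.7, 70.2 and 47.0 CPM in KO 1 to 3, against 84.9, 54.3 and 77.6 CPM in WT 1 to 3, with KO 2 above WT 2 (-0.26 ± 0.20, adjusted p = 0.491).

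FZD3, a receptor of the planar polarity branch needed for axon growth in mouse, averaged 164 ± 23.2 CPM in KO and 166 ± 1.04 CPM in WT (SD, n = 3 each; -0.02 ± 0.10). Log2 fold changes near 0 were also found for FZD7 (-0.00 ± 0.22) and FZD4 (0.00 ± 0.21), the norrin receptor of retinal vessels, whose exons share 1399 bases with PRSS23 on the opposite strand. FZD5, an eye field receptor in frog and mouse, had the highest fold change among receptors but a wide error (1.39 ± 0.65, adjusted p = 0.252), with 1.46 to 4.59 CPM in KO libraries and 0.324 to 2.07 CPM in WT libraries.

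None of the secreted frizzled-related genes was called. SFRP1, which binds WNT ligands and frizzled receptors, had the highest level per length of all members, at 544, 524 and 305 CPM in KO 1 to 3, against 537, 185 and 291 CPM in WT 1 to 3. WT 1 was close to KO 1 and KO 2, KO 3 was close to WT 3, and the groups overlapped (0.44 ± 0.46, edgeR adjusted p = 0.64). SFRP2, an antihem gene in mouse, had 53.9, 41.4 and 64.9 CPM in KO 1 to 3, against 77.8, 75.9 and 91.8 CPM in WT 1 to 3. All KO libraries lay below all WT libraries, and the difference missed the threshold (-0.62 ± 0.16, adjusted p = 0.0578). DESeq2 called it (-0.61 ± 0.16, adjusted p = 0.00588), as did edgeR without KO 3 and with no filter, and adjusted p-values ran over 1.44e-06 to 0.198 in the alternatives. FRZB overlapped between the groups (9.55 ± 5.94 CPM in KO and 20.6 ± 6.20 CPM in WT; -1.11 ± 0.47, adjusted p = 0.238) and among the alternatives run was called only without KO 3 (-1.73 ± 0.29, adjusted p = 0.0206; 0.0206 to 0.476 over all of them). SFRP4 and SFRP5 had at most 12 counts in any library and were not tested.

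Both DKK genes with enough counts changed, in opposite directions. DKK3, a divergent family member that is not known as a general LRP6 inhibitor (ENSG00000050165, GRCh38 chromosome 11, 11963106 to 12009769, minus strand), had 65.8, 80.6 and 87.3 CPM in KO 1 to 3, against 116, 158 and 150.0 CPM in WT 1 to 3. All KO libraries lay below all WT libraries (-0.86 ± 0.14, edgeR adjusted p = 0.0107), and the call held in 5 of 6 fits that left out a library and was lost without WT 3. DKK2, which binds LRP6 and can act on it either way depending on context (ENSG00000155011, GRCh38 chromosome 4, 106921802 to 107283806, minus strand), had 4.29, 5.66 and 2.88 CPM in KO 1 to 3, against 0.713, 1.46 and 0.597 CPM in WT 1 to 3. KO was higher in every library, from a low WT level, and the log2 fold change was 2.19 ± 0.39 (adjusted p = 0.0134). In counts these were 66, 89 and 47 in KO against 11, 24 and 9 in WT, and the call was lost without KO 1 or WT 3 (1.94 to 2.70 over the 6 fits). DKK4 and DKK1, both inhibitors of LRP6, were too low to test. DKK4 had 15, 2 and 6 counts in KO 1 to 3, against 24, 4 and 8 counts in WT 1 to 3, and DKK1 6 to 8 counts in KO, against 7 to 11 in WT.

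No R-spondin gene was called. RSPO2 had 100.5, 109.9 and 70.2 CPM in KO 1 to 3, against 30.5, 67.7 and 65.5 CPM in WT 1 to 3. All KO libraries lay above all WT libraries, KO 3 only just, and WT 1 was far below the other WT libraries (0.78 ± 0.35, edgeR adjusted p = 0.269). Without WT 1 the fold change was smaller (0.49 ± 0.18, adjusted p = 0.153; 0.153 to 0.481 over the alternatives). RSPO3, which like RSPO1 and RSPO2 is expressed in the hem of mouse, had 48.6, 48.4 and 30.2 CPM in KO 1 to 3, against 40.1, 43.5 and 53.1 CPM in WT 1 to 3, and the groups overlapped (-0.10 ± 0.19, adjusted p = 0.797). RSPO1 (0.27 ± 0.33) and RSPO4 (-0.57 ± 0.50), the last near 1 CPM or below in 5 of 6 libraries, also overlapped.

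Per length, as CPM per kilobase of merged GENCODE 29 exons, the frizzled-related genes led in WT. SFRP1 had 96.1 ± 27.8 CPM per kb in KO and 71.0 ± 37.9 CPM per kb in WT (SD, n = 3 each), and SFRP2 26.3 ± 5.80 CPM per kb in KO and 40.3 ± 4.28 CPM per kb in WT. FZD10 followed with 19.03 ± 8.42 CPM per kb in KO and 35.3 ± 18.2 CPM per kb in WT, and FZD2 with 28.6 ± 5.65 CPM per kb in KO and 34.2 ± 7.56 CPM per kb in WT. DKK3 had 15.4 ± 2.17 CPM per kb in KO and 27.9 ± 4.36 CPM per kb in WT, and WNT7B 10.97 ± 1.67 CPM per kb in KO and 23.9 ± 0.0188 CPM per kb in WT. In WT the SDs of SFRP1, SFRP2, FZD10 and FZD2 overlap, so the order among them is not fixed by these libraries. WNT7B had rank 12 of 42 in KO and rank 6 in WT. Both the levels and the order depend on the length used. Per kilobase of the longest transcript, DKK3 had 29.4 ± 4.14 CPM per kb in KO and 53.3 ± 8.32 CPM per kb in WT and moved to rank 2 in WT, above SFRP2 at rank 3. On that scale WNT7B had 14.1 ± 2.15 CPM per kb in KO and 30.8 ± 0.0242 CPM per kb in WT, with rank 9 in KO and rank 6 in WT, and WNT5B 11.4 ± 1.14 CPM per kb in KO and 11.4 ± 1.01 CPM per kb in WT, against 6.11 ± 0.608 CPM per kb in KO and 6.09 ± 0.538 CPM per kb in WT by merged exons. WNT8B, with 13.7 ± 3.01 CPM per kb in KO and 13.5 ± 4.57 CPM per kb in WT, overlapped WNT7B within SD in KO and lay below it in WT.

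WNT7B made up 20.6% ± 2.77 of the summed ligand level per length in KO libraries, against 37.0% ± 7.57 in WT libraries. The sum over the other 18 ligands, formed after the values were seen, was 42.2 ± 2.66 CPM per kb in KO and 42.3 ± 12.1 CPM per kb in WT. The wide WT spread came from WT 1, at 28.4, beside 47.7 and 50.8 CPM per kb in WT 2 and WT 3. KO 1 to 3, at 40.0, 41.4 and 45.2 CPM per kb, lay above WT 1 and below WT 2 and WT 3, so the near-equal means depend on WT 1. Summed over all ligands, KO 1 and WT 1 were nearly equal (52.3 and 52.2 CPM per kb). For receptors, FZD10 took 20.4% ± 9.39 of the family in KO and 31.8% ± 15.5 in WT, and FZD2 30.7% ± 6.13 in KO and 31.6% ± 8.32 in WT.

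**Figure D2:**
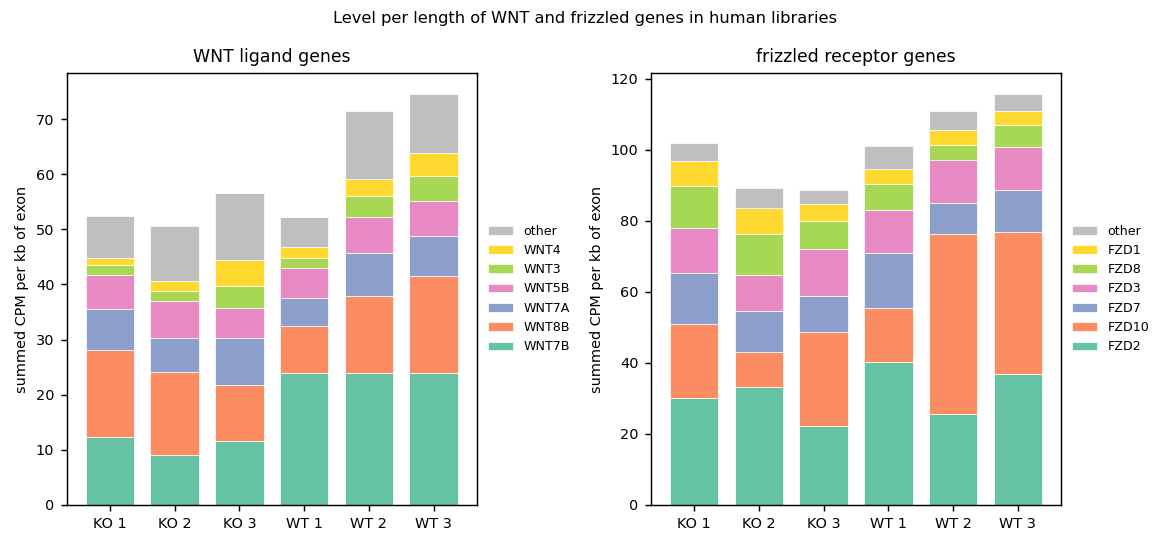
Summed level per length (CPM per kb of exon) of the WNT ligands, left, and frizzled receptors, right, in each human library, with KO libraries left of WT libraries and each colour 1 gene (grey: the rest). The WNT7B segment averages 10.97 ± 1.67 CPM per kb in KO and 23.9 ± 0.0188 CPM per kb in WT (SD), while the other segments vary within WT.

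Spread within groups differed from member to member, and its size was not compared with that of all genes. WT 1 was the lowest WT library for 12 of the 13 tested ligands (92.3%) and for 21 of 32 members (65.6%), against 37.4% of all genes tested. WNT7B was the exception, with WT 1 the highest by a small margin. In WT 1 the R-spondin sum was 90.7 CPM, beside 157 and 165 CPM in WT 2 and WT 3, whereas the sum of SFRP genes and FRZB was 630.2 CPM, beside 289 and 403 CPM. Of the 15 hem and choroid plexus markers listed, LMX1A, MSX1 and TTR were picked after their values were seen. These were also lowest in WT 1 among WT libraries (11.3, 9.59 and 252 CPM). How many of the other markers shared this is not given here, and WT 1 was lowest for 37.4% of all genes tested. Whether WT 1 held less hem tissue was not tested. Among KO libraries, KO 3 was highest for 6 of 13 ligands (WNT7A, WNT2B, WNT3, WNT4, WNT3A and WNT10B) and lowest for 3. It was also lowest for SFRP1, RSPO1, RSPO2 and RSPO3, named after their values were seen. Over the 32 members, KO 3 was highest for 12 (37.5%) and lowest for 14 (43.8%), against 35.4% of all genes tested for each.

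**Figure D3:**
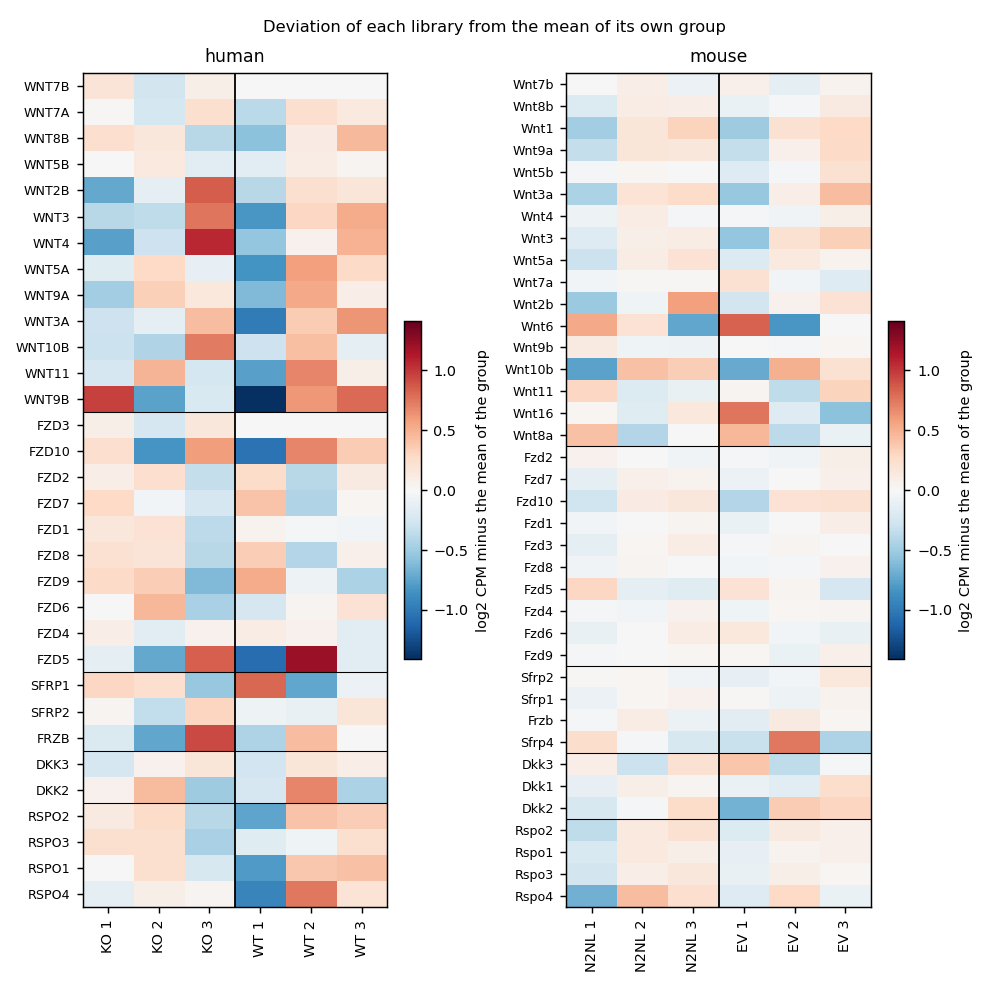
Deviation of each library from the mean of its own group, in log2 CPM, for each member tested in human (left; KO, then WT) and mouse (right; N2NL, then EV); red is above and blue below the group mean. The WT 1 column is blue for 12 of 13 ligands, and replicate 1 of both mouse groups is lowest for 19 of 38 members.

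Beyond the family, 72 other genes of the pathway were listed in 5 overlapping lists, and 71 had enough counts to be tested. Of these, 2 rose and 2 fell in KO (5.63%, against 5.5% of all genes tested), with a median log2 fold change of -0.07. KO and WT libraries did not overlap for 25 of the 71, against 28.8% of all genes. At an unadjusted edgeR p under 0.05 there were 19, against 22.8% of all genes. Without WT 1, 9 were called, 4 higher and 5 lower, against 8.27% of all genes. Neither of the lists for receptor partners and surface regulators (0 of 23 called, median -0.20) nor for ligand acylation and secretion (0 of 4, 0.13) had a member called. LRP6, the co-receptor, differed by -0.04 ± 0.12, LRP5 by -0.21 ± 0.12, and WLS, which carries WNT proteins to the surface, by 0.21 ± 0.29.

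In the cytoplasmic and nuclear machinery 1 of 26 genes was called (median -0.06). TLE1, a Groucho co-repressor that binds TCF/LEF and HES factors, had 193, 184 and 184 CPM in KO 1 to 3, against 123, 115 and 134 CPM in WT 1 to 3. KO lay above WT in every library (0.59 ± 0.08, edgeR adjusted p = 0.00442), and the call held whichever library was left out (6 fits). CTNNB1, which encodes beta-catenin, differed by -0.02 ± 0.08.

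Among 14 feedback and target genes 1 was called (median -0.09). NKD2, a feedback inhibitor that binds Dishevelled, had 1.56, 0.953 and 1.22 CPM in KO 1 to 3, against 2.92, 4.02 and 2.72 CPM in WT 1 to 3 (-1.37 ± 0.31, edgeR adjusted p = 0.0318). The groups did not overlap, and of 6 fits that left out a library the call held only without WT 1. AXIN2, the most widely used readout of beta-catenin signalling, had 59.2, 51.3 and 57.5 CPM in KO 1 to 3, against 52.8, 57.0 and 57.0 CPM in WT 1 to 3. The groups overlapped (0.01 ± 0.09, adjusted p = 0.96), and LEF1, a TCF/LEF factor, overlapped too (-0.24 ± 0.43).

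In the planar polarity core 2 of 9 genes were called, in opposite directions (median -0.31). CELSR2, an atypical cadherin, fell (266 ± 15.8 CPM in KO and 343 ± 21.9 CPM in WT; -0.37 ± 0.09, edgeR adjusted p = 0.0351), and PRICKLE1, a cytoplasmic component, rose (16.8 ± 2.06 CPM in KO and 10.6 ± 1.22 CPM in WT; 0.67 ± 0.16, adjusted p = 0.0361). Each missed the threshold in most fits that left out a library, CELSR2 in 5 of 6 and PRICKLE1 in 4 of 6.

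Some markers of other regions and cell types were called in the same contrast, and their part in the differences above was not tested. Over all genes tested, 5.5% were called, 2.31% higher and 3.19% lower in KO. Of 15 hem and choroid plexus markers, 4 rose (BMP6, BMP7, MSX1 and GMNC) and none fell, with a median log2 fold change of 1.06 and a summed level of 1676 to 4589 CPM in KO, against 379.9 to 2434 CPM in WT, mostly TTR. Of 10 tested ventral telencephalon markers, 5 rose (DLX1, DLX2, DLX5, DLX6 and ISL1), with a summed level of 344 to 563 CPM in KO, against 106 to 194 CPM in WT. Of 9 tested eye field, retina and pigment markers, SIX3, VAX1 and TYRP1 were among those that rose and PMEL fell, with a summed level of 59.5 to 76.1 CPM in KO, against 22.0 to 34.4 CPM in WT.

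The antihem list had 4 tested markers, of which DBX1 fell (sum 35.6 to 44.2 CPM in KO, against 31.4 to 39.2 CPM in WT). For this list and those below, the shares over all genes were again 2.31% higher and 3.19% lower in KO. A single call in so short a list does not show that the list moved. PAX8 fell among 6 midbrain and hindbrain markers (sum 60.9 to 187 CPM in KO, against 158 to 327 CPM in WT). Of 7 neural crest and mesenchyme markers PDGFRB rose and LUM fell (sum 39.001 to 64.6 CPM in KO, against 39.6 to 61.0 CPM in WT). Of 8 neuron markers TUBB3 and MAPT fell (sum 2954 to 4169.9 CPM in KO, against 3074 to 3888 CPM in WT). No marker was called among 9 dorsal telencephalon genes (sum 665 to 1169 CPM in KO, against 594 to 1239.8 CPM in WT), 8 radial glia genes (3137 to 4041 CPM in KO, against 3913 to 4392 CPM in WT) and the 4 surface epithelium, 2 endothelium or blood and 2 pluripotency genes tested. POU5F1 and NANOG were at 0 in all KO libraries and had at most 1 count in a WT library, HBA1 and TDGF1 at 0 in all 6.

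In mouse, 38 of the 41 members were tested and 0 were called by edgeR, where 2 of 16682 genes were called in all (0.012%). At an unadjusted p under 0.05 there were 7 members, against 7.45% of all genes, and DESeq2 called 3, Wnt7b, Fzd7 and Sfrp2, of the 17 members to which it gave an adjusted p, against 0.347% of all genes. N2NL and EV libraries did not overlap for 9 of 38 members (23.7%), against 12.7% of all genes (7.39% higher and 5.31% lower). Of these 9, 8 were higher in N2NL (Wnt7a, Wnt7b, Fzd1, Fzd2, Fzd4, Fzd7, Sfrp1 and Sfrp2) and 1 was lower (Wnt9b). The median log2 fold change over members was 0.04, beside -0.006 over all genes, and the 2 genes Wnt2 and Wnt10a, with Sfrp5, had too few counts to test.

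**Figure D4:**
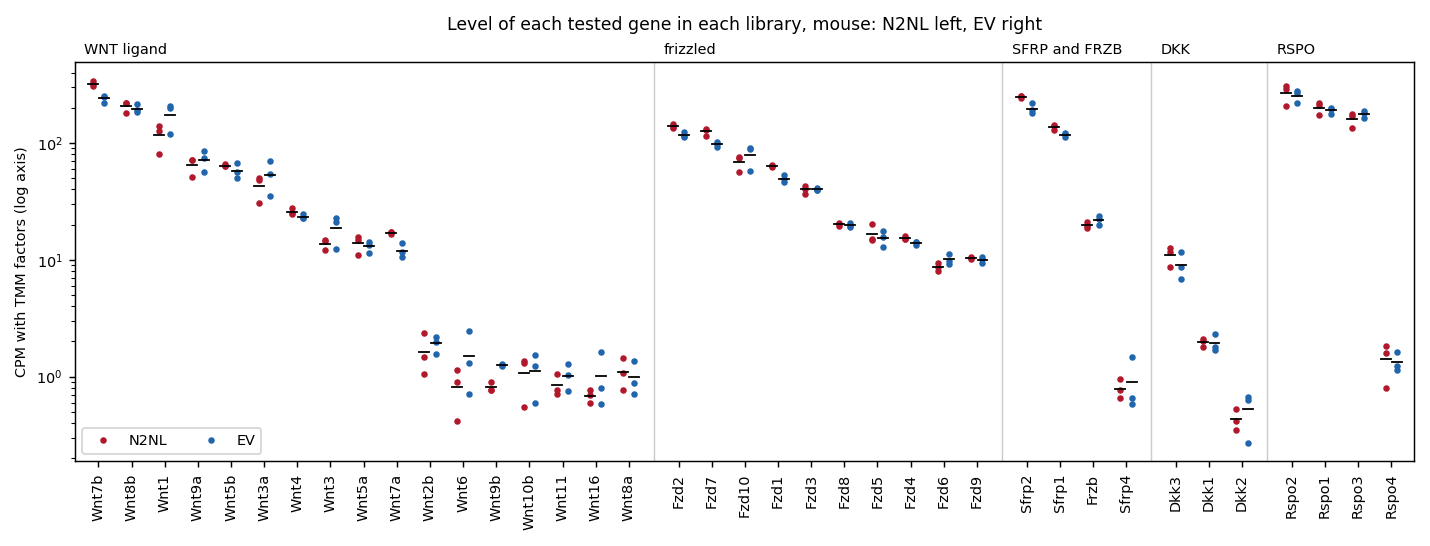
Level in CPM (log axis) of each mouse member tested, in each library, with N2NL in red at the left and EV in blue at the right of each gene; bars are group means. N2NL points of Wnt7b (305 to 342 CPM) lie above EV points (222 to 255 CPM), and no gene reached an adjusted p under 0.05.

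Wnt7b, the ortholog of the ligand that fell in human KO, had 319.8, 342 and 305 CPM in N2NL 1 to 3, against 255, 222 and 249 CPM in EV 1 to 3. All N2NL libraries lay above all EV libraries, but the difference was not called (0.41 ± 0.08, edgeR adjusted p = 0.117). DESeq2 called it (0.41 ± 0.09, adjusted p = 0.0032), and adjusted p-values ran over 0.000109 to 0.9997 in the alternatives. Wnt8b, the other ligand chosen for its CPM in EV, had 180.4, 220.3 and 219 CPM in N2NL 1 to 3, against 185, 192 and 214 CPM in EV 1 to 3. N2NL 1 was lowest and the groups overlapped (0.07 ± 0.09, edgeR adjusted p = 0.911). Log2 fold changes over the 17 ligands tested ran from -0.82 (Wnt6) to 0.50 (Wnt7a).

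Fzd1 had 61.9, 63.7 and 65.1 CPM in N2NL 1 to 3, against 46.3, 49.3 and 52.9 CPM in EV 1 to 3. N2NL was higher in every library and was not called (0.36 ± 0.08, edgeR adjusted p = 0.222). Fzd2 had 144, 138 and 134 CPM in N2NL 1 to 3, against 115, 113 and 125 CPM in EV 1 to 3, the receptor with the highest CPM in EV. Fzd7, whose human ortholog was not called, had 115, 132 and 130.2 CPM in N2NL 1 to 3, against 91.9, 97.7 and 102 CPM in EV 1 to 3. Both were higher in every N2NL library without a call (0.24 ± 0.07 and 0.37 ± 0.08, adjusted p = 0.454 and 0.178), and edgeR called Fzd7 without N2NL 1.

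Sfrp2 had 252, 254 and 241 CPM in N2NL 1 to 3, against 182, 190.2 and 218 CPM in EV 1 to 3. Sfrp1 had 128, 139 and 142 CPM in N2NL 1 to 3, against 118, 112 and 121 CPM in EV 1 to 3. N2NL was higher in every library for both (0.34 ± 0.08 and 0.22 ± 0.07, edgeR adjusted p = 0.24 and 0.482). Dkk3 had 11.6, 8.74 and 12.6 CPM in N2NL 1 to 3, against 11.6, 6.87 and 8.70 CPM in EV 1 to 3. Dkk1 had 1.79, 2.08 and 2.01 CPM in N2NL 1 to 3, against 1.79, 1.71 and 2.298 CPM in EV 1 to 3. Dkk2 had 0.349, 0.416 and 0.533 CPM in N2NL 1 to 3, against 0.271, 0.663 and 0.636 CPM in EV 1 to 3. The groups overlapped for all 3, whose log2 fold changes were 0.28 ± 0.19, 0.02 ± 0.24 and -0.30 ± 0.45.

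Rspo2 had 206, 290.1 and 307 CPM in N2NL 1 to 3, against 221, 276 and 266 CPM in EV 1 to 3. Rspo1 had 172, 219 and 211 CPM in N2NL 1 to 3, against 176, 197 and 199.6 CPM in EV 1 to 3. Replicate 1 was lowest in both groups for both genes, and the groups overlapped (0.07 ± 0.16 and 0.07 ± 0.09). Replicate 1 of both groups was the lowest library for 19 of 38 members (50%), against 17.7% of all genes tested. Wnt1 was among them. Named here after its values were seen, it had 80.6, 127 and 141 CPM in N2NL 1 to 3, against 119.9, 198 and 207 CPM in EV 1 to 3 (-0.59 ± 0.31, edgeR adjusted p = 0.766). The authors' deposited table lists an adjusted p of 1.03e-10 for Wnt1, with a negative statistic of -7.56.

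Of the other pathway genes in mouse 0 of 70 were called, by edgeR as by DESeq2, with a median log2 fold change of 0.08. At an unadjusted edgeR p under 0.05 there were 9 of the 70, against 7.45% of all genes. Groups did not overlap for 16 of the 70, against 12.7% of all genes (7.39% higher and 5.31% lower), and in each of the 16 N2NL was the higher group. Axin2 had 96.1, 129 and 133 CPM in N2NL 1 to 3, against 106, 128 and 130.1 CPM in EV 1 to 3, without separation (-0.02 ± 0.13). None of the region and cell type markers was called. For the dorsal telencephalon list 7 of 9 markers did not overlap, against 12.7% of all genes (sum 479 to 489.6 CPM in N2NL, against 381 to 405 CPM in EV). By the same measure, groups did not overlap for 4 of 7 eye field, 3 of 8 neuron and 0 of 15 hem markers tested. The eye field list summed to 51.2 to 55.3 CPM in N2NL, against 36.4 to 42.2 CPM in EV, the neuron list to 626 to 697 CPM in N2NL, against 727 to 863 CPM in EV and the hem list to 554 to 685 CPM in N2NL, against 582 to 706 CPM in EV. Their part in the member values was not tested.

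Set side by side, 32 orthologs were tested in both species. Libraries of the 2 groups did not overlap for 7 of them in human, against 28.8% of all genes, and for 9 in mouse, against 12.7%. The sets shared 3, 42.9% of the human and 33.3% of the mouse set. Over all 32 orthologs, 9 were apart in mouse and 7 in human. Whether a shared 3 is more than these numbers alone would give was not tested. WNT7B and SFRP2 were lower in KO and higher in N2NL, each against its control, and FZD1 was higher in both. WNT7B differed by -1.12 ± 0.11 in KO over WT, and Wnt7b by 0.41 ± 0.08 in N2NL over EV. SFRP2 differed by -0.62 ± 0.16 in human and Sfrp2 by 0.34 ± 0.08 in mouse. The species differ in stage, line and manipulation, and no difference between their fold changes was tested. DKK3 and DKK2, called in human, differed by 0.28 ± 0.19 and -0.30 ± 0.45 in mouse.

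**Figure D5:**
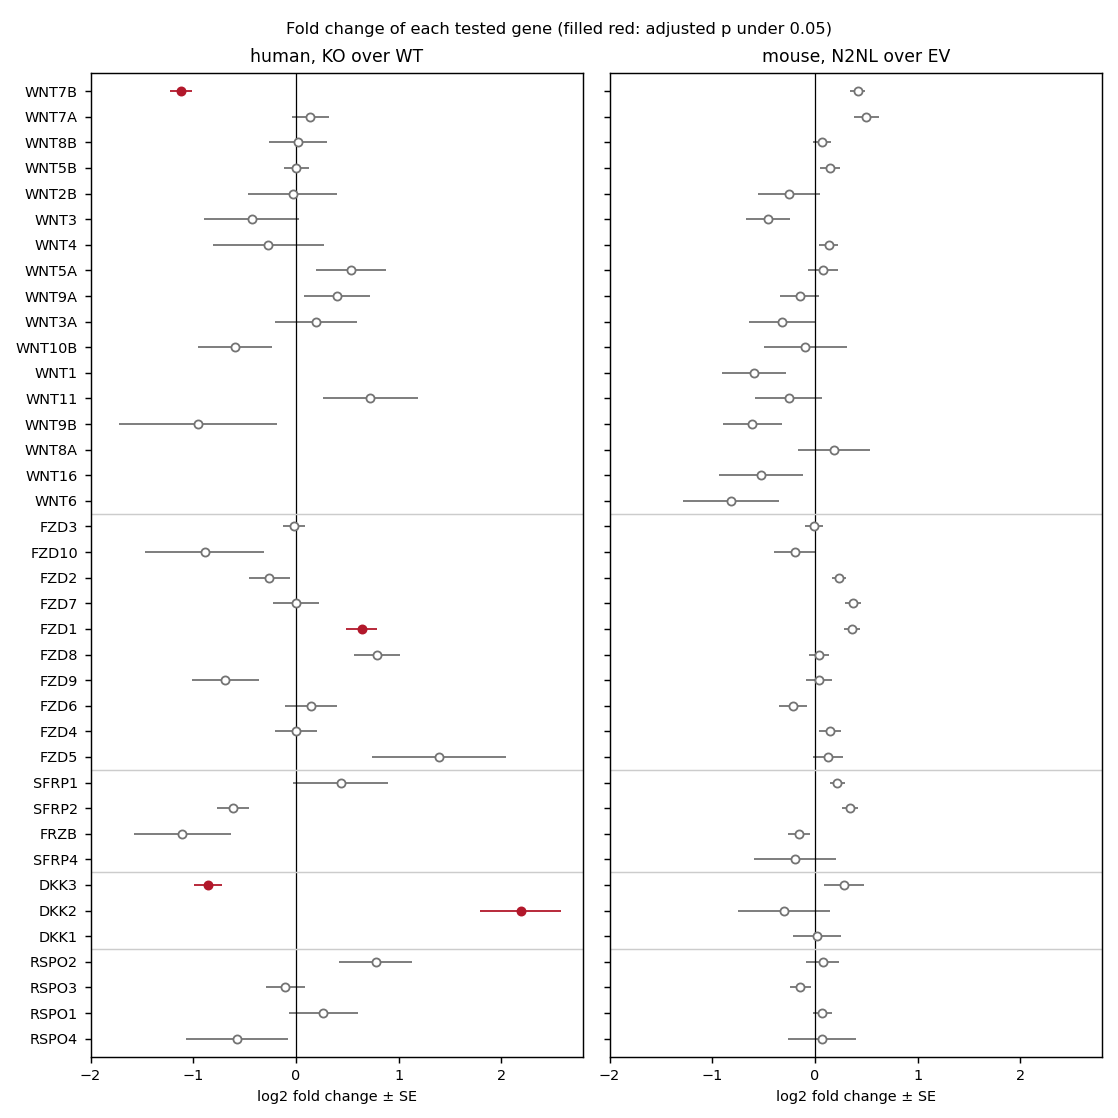
Log2 fold change ± SE of each member tested in at least 1 species, KO over WT in human (left) and N2NL over EV in mouse (right), in family order under human symbols; filled red points have an edgeR adjusted p under 0.05 and open points do not. WNT7B lies at -1.12 in human and 0.41 in mouse, and DKK2 at 2.19 in human and -0.30 in mouse.

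An adjusted p under 0.05 was listed for 6 human members in the authors' deposited table, the 4 called here with FZD8 (4.83e-03) and SFRP2 (5.90e-03). In mouse the authors' deposited table listed 5 such members, Wnt1, Wnt7b, Fzd7, Sfrp2 and Fzd1. No source used here gives the design behind the authors' comparison.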

How the data were processed

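RNA was polyA-selected and sequenced with a strand-specific kit, per the labels' protocols. Per the submitters' processing notes the tools were HTSeq 0.6.1p1, DESeq2 2.11.39, STAR 2.4.0, Trimmomatic 0.36 and Bowtie2 2.3.3.1, with the builds GRCh38/hg38 and GRCm38/mm10 and no roles given. Whether counting used strand was not stated. The deposited raw count tables were used for all tests. From the authors' deposited comparison tables adjusted p-values, log2 fold changes and statistics (a score) were read, and some of the p-values and statistics are quoted, together with the authors' normalized NOTCH2NL signal in mouse. Summary lines that name no gene (no feature 5.775% to 6.495% and not unique 26.64% to 33.67% of the mouse total) were left out.

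Genes passing filterByExpr were fitted per species with edgeR 4.0.16 in R 4.3.3 (TMM factors, robust quasi-likelihood F test, Benjamini-Hochberg adjustment over all genes tested, threshold 0.05). SEs are the log2 fold change over the square root of F. CPM values carry TMM factors, and lengths and identifiers come from GENCODE 29. Alternatives were DESeq2 1.42.0, other scalings, no filter, a replicate block and leaving out each library. The code was tested on simulated data. Figures used matplotlib 3.10.9.

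Values in every library are given for members called at the threshold, their orthologs, the 2 members of each family with the highest mean level in the control group (per length in human, by CPM in mouse), and uncalled members whose groups do not overlap with an absolute log2 fold change over 1. Called genes of the other lists are named, except that some marker genes are not reported here. Other genes printed with values were chosen after their values were seen. The members and lists were chosen with earlier results of these data known. Replicate pools of a group differed by more than sampling noise.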

Additional observations from a re-analysis of the deposited data

How the results depend on the processing

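The human count of 4 members called was 9 with no filter on low counts and 1 to 7 when a library was left out, while 1.29% to 8.27% of all genes were called. With no filter, adjusted p-values of called members were far lower at nearly unchanged fold changes. In edgeR, WNT7B had 2.76e-24 there, against 0.000417 in the main fit, and DKK3 4.87e-15, against 0.0107. Calls added by the fit with no filter are therefore weak support. The count of 4 pathway genes was 9 with DESeq2, 12 with no filter and 1 to 9 when a library was left out, the 9 being without WT 1. The mouse count of 0 members was 3 with DESeq2, 5 with no filter, 1 with the replicate block (Wnt1, lower in N2NL) and 0 to 1 when a library was left out. Leaving out a library turned the direction of 12 of 32 tested human and 11 of 38 tested mouse members, none of them called. Among those given in every library, log2 fold changes over these fits ran from -0.22 to 0.27 for WNT8B, from -0.21 to 0.093 for RSPO3, from -0.066 to 0.17 for Dkk1 and from -0.036 to 0.23 for Rspo2. The cause was not tested. Over all genes tested, deviations of same-numbered libraries correlated at 0.22, -0.11 and 0.13 in human and 0.14, 0.02 and -0.005 in mouse. Not every library correlated best with its own number. In mouse, however, N2NL 1 and EV 1 were both lowest for 19 of 38 members, against 17.7% of all genes. Whether same-numbered libraries belong together is therefore not settled, and the main fits did not pair them. The block called 0.126% of all mouse genes, against 0.012% in the main fit. With the replicate block 5 human members were called, SFRP2 being added. Low counts limit 10 human and 3 mouse members, which were not tested, and with 3 pools a group an adjusted p above the threshold does not show that levels were equal.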

Other observations

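Neighbouring ligand genes were compared by position after their values were seen. In the GENCODE 29 gene models (GRCh38), 4 pairs neighbour each other: WNT3 and WNT9B, 46 bases apart on chromosome 17, WNT6 and WNT10A, 6129 bases apart on chromosome 2, WNT10B and WNT1, 6689 bases apart on chromosome 12, and WNT9A and WNT3A, 59152 bases apart on chromosome 1. These gaps are between the outer ends of the models. The RefSeq promoter windows lie farther apart for WNT3 (46818643 to 46818942, minus strand) and WNT9B (46851333 to 46851632, plus strand). WNT3 differed by -0.43 ± 0.46 and WNT9B by -0.95 ± 0.77 on the log2 scale (KO over WT), and WNT9A by 0.40 ± 0.32 and WNT3A by 0.20 ± 0.40. WNT10B differed by -0.59 ± 0.36, and WNT1, WNT6 and WNT10A had too few counts to test. None of the 5 tested was called by edgeR.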
